A study of Mus musculus with 30 samples.

Results

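Genes that mark the second- and third-order neurons of the retina were followed in mice whose photoreceptors are damaged by bright light: 36 genes of bipolar, amacrine, horizontal and ganglion cells, of 42439 gene identifiers in the tables. The members were taken by gene symbol from a list of 5 classes: 6 genes of the signalling cascade of ON bipolar cells, 7 other bipolar genes, 9 amacrine genes, 5 horizontal genes and 9 ganglion genes. All 36 were found in both count tables, each with 1 gene identifier, and all 36 passed the filter on low counts. The tissue was neural retina, from male and female Abca4-/-Rdh8-/- mice of a C57BL/6J background aged 4 to 6 weeks. Their housing had a day of 12 h at no more than 10 lux, then 12 h dark.

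Every group carried both deletions, so no group here has an intact Abca4 or Rdh8. The groups called light received 10000 lux of white light for 30 min and DMSO as vehicle, and the retinas were taken 24 h later. Those called no light had DMSO and no bright exposure. In a combined experiment of 4 groups, further illuminated mice were injected intraperitoneally 30 min before the light with BMT (bromocriptine, metoprolol and tamsulosin) or MDB (metoprolol, doxazosin and bromocriptine). In a mono experiment of 6 groups with its own no-light and light libraries, the drugs were bromocriptine (BRM), metoprolol (MTP), tamsulosin (TAM) or doxazosin (DOX) alone. Drug without light was not among the groups. Each group had 3 libraries, and the labels do not say whether each came from a separate animal, so p-values measure the spread between libraries, which may be technical.

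Photoreceptors release glutamate onto bipolar and horizontal cells, bipolar cells drive amacrine and ganglion cells, and ganglion cell axons form the optic nerve. ON bipolar cells sense the glutamate through the receptor mGluR6 (Grm6), which keeps the channel TRPM1 closed in darkness; nyctalopin (Nyx) and GPR179 hold this complex at the dendritic tip, RGS11 speeds its shut-off and the G protein subunit encoded by Gng13 takes part in the signal. Horizontal cells feed back onto photoreceptors, amacrine cells are mostly inhibitory through GABA or glycine, and the proteins encoded by Nefl, Nefm and Nefh are the neurofilaments of large axons. Several members are shared between classes: Calb1, Calb2, Prox1, Isl1, Gad1, Gad2, Slc32a1, Tfap2a and Tfap2b are each made by more than 1 kind of inner retinal neuron. The class names below are those of the list.

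The stretches upstream of 3 bipolar genes are shown because these genes stand for the different behaviours described below: Trpm1 was higher with light in the combined experiment, Prkca was lower with light in both experiments, and Cabp5 passed the test in neither. The sequences are from the RefSeq promoter table of build GRCm38.p6, which holds windows for 26 of the 36 members. Each runs 5′ to 3′ on the strand of the gene, from 250 bases before the RefSeq start, and ends where the gene begins in the count tables. Capitals mark TAATCC or its reverse complement GGATTA, the core bound by homeodomain proteins of the OTX and CRX kind. TAATTA, whose reverse complement is the same letters, was also searched and is in none of the stretches shown; the motifs TAATCC and TAATTA share their first bases.
Trpm1: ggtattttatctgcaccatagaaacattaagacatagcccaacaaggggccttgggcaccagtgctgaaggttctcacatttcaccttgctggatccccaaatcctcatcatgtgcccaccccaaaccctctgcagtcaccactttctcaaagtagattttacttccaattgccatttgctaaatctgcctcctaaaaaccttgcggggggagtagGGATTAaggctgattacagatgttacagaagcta
Cabp5: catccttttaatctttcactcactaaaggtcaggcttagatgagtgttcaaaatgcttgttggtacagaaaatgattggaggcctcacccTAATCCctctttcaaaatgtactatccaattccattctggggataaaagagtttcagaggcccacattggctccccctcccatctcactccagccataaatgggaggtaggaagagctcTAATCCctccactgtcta
Prkca: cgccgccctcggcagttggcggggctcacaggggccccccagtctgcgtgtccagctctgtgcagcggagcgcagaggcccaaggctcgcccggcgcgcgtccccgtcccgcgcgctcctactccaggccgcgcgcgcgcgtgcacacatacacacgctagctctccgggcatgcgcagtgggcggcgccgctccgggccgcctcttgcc
The Trpm1 stretch is chr7:64153585-64153834 on the plus strand, that of Cabp5 is chr7:13397905-13398131 on the plus strand, and that of Prkca is chr11:108343929-108344138 on the minus strand. Trpm1 holds 1 copy of the marked motif, which starts 34 bases before the gene, and Cabp5 holds 2. Prkca holds none, is 76.2% G or C and has 30 CG steps, against 46.0% and 1 in Trpm1 and 44.5% and 0 in Cabp5. The stretches of Gng13 and Pcp2, cut in the same way and not shown, hold no TAATCC on either strand. Gng13, like Cabp5, passed the test in neither experiment. Of all 32851 windows of 250 bases in the table, 6.25% hold TAATCC on either strand and 4.84% hold TAATTA. Among the members' 36 windows the counts were 4 and 3, or 11.1% and 8.33%, some of the 26 genes having several windows. These matches describe letters only and were not tested against expression.

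All 5 classes were read well above 0 in these retinas. Levels between genes are compared as FPKM, which is per length of transcript, summed over the transcripts of a gene. Calb2, the calcium-binding protein calretinin, led with a mean of 209.6 FPKM over the 30 libraries, followed by the light neurofilament gene Nefl with 166 and the surface protein gene Thy1 with 117. Gng13 led the ON cascade with 114 FPKM and Pcp2, a regulator of G protein signalling in bipolar cells, led the other bipolar genes with 94.8. Gad1, which encodes an enzyme that makes GABA, had 92.0 FPKM. Among the horizontal genes Prox1 had 18.3 and Calb1 17.3 FPKM, while the transcription factor genes Onecut1, Onecut2 and Lhx1 were the lowest of all members, with 1.06, 0.830 and 0.601 FPKM. Neighbours in this order often overlapped: Onecut1 ranged from 0.380 to 1.74 FPKM and Lhx1 from 0.324 to 1.21, whereas Calb2 never fell below 151.

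**Figure D1:**
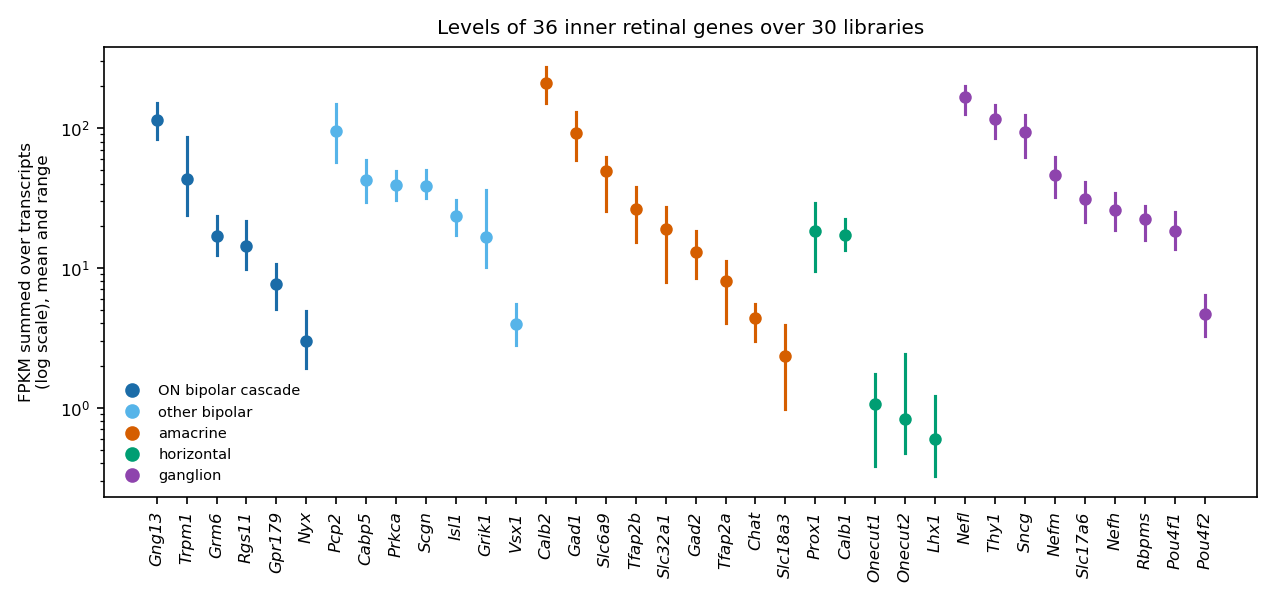
FPKM summed over transcripts (log axis) for each of the 36 genes, grouped by class; points are means over the 30 libraries and lines run from the lowest to the highest library. Calb2 and Nefl are highest, and the horizontal genes Onecut1, Onecut2 and Lhx1 lie near or below 1 FPKM.

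Between samples, levels are given as CPM, counts scaled to a common library total, after TMM scaling, and differences as log2 fold changes with their SE from edgeR's quasi-likelihood fit, with p adjusted by Benjamini-Hochberg over all genes tested. A gene is called at an adjusted p under 0.05. Library totals were 18481154 to 25808664 counts in the combined and 12021860 to 22183784 in the mono experiment. Lhx1 had the fewest counts, 24 to 81 per library, and Nefl the most, 5101 to 14651. In bulk retina, fewer cells of a type and less RNA per cell cannot be told apart, and CPM are shares of the whole library. Lens RNA varied between libraries within most groups: a score averaging log2 CPM over 6 genes of lens fibres ran from 1.41 to 10.1. It also differed between groups that are compared below. All MDB scores (8.97 to 9.26) lay above those of combined light (3.47 to 7.80). All BRM scores (8.41 to 10.1) lay above those of mono light (7.64 to 7.95). The part of lens RNA in the results was not tested beyond a fit with the score as a covariate.

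With bright light most inner retinal genes did not pass the test, while 14 and all 15 of 15 rod genes fell in the combined and mono experiments. In the combined experiment 6 of the 36 members were called: Trpm1, Nyx, Grik1 and Onecut2 were higher, and Prkca and Calb1 were lower. In the mono experiment 3 were called: Onecut2 was higher, and Prkca and Pcp2 were lower. The 4 higher members are 11.1% of the members and the 2 lower are 5.56%, where 7.75% of all genes were called higher and 5.47% lower in the combined experiment. For the mono experiment the members' shares were 2.78% higher and 5.56% lower, against 11.4% and 12.6% of all genes. The median log2 fold change of the members was 0.02 in the combined and 0.05 in the mono experiment, beside 0.01 and 0.02 over all genes tested and -0.88 and -1.39 over 15 rod genes. No amacrine or ganglion gene was called by edgeR in the main fit of either experiment. At an unadjusted p under 0.05 the count was 0 in the combined and 2 in the mono experiment (Nefm and Slc17a6). These counts stand beside 26.4% and 35.3% of all genes. DESeq2 called none of these 18 members. In the mono experiment edgeR called Nefm and Slc17a6 with the lens-fibre score as covariate, and Gad1 without no-light replicate 2.

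**Figure D2:**
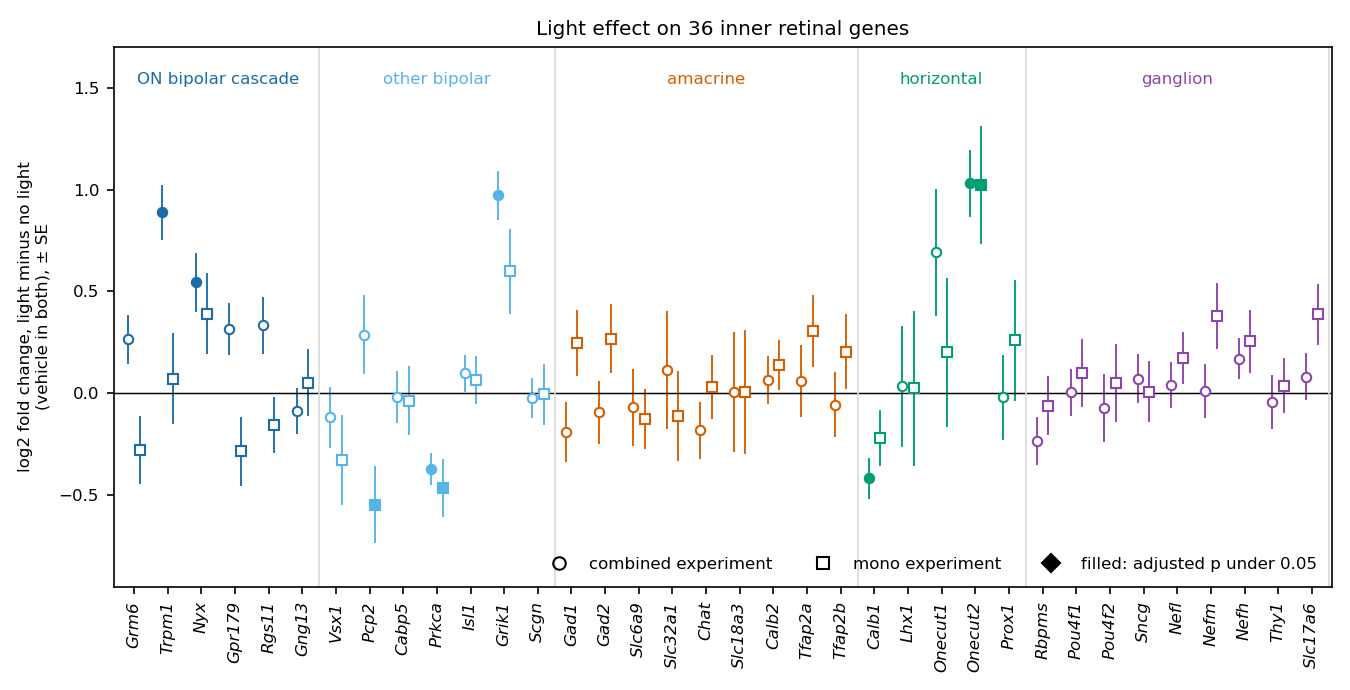
Log2 fold change of light against no light (both with vehicle) for the 36 genes, with SE, in the combined experiment (circles) and the mono experiment (squares), 3 libraries a group; filled symbols have an adjusted p under 0.05. Onecut2 is near 1 in both experiments, Prkca is below 0 in both, and the 18 amacrine and ganglion genes stay within 0.39 of 0.

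Groups whose libraries did not overlap were found for 9 of 36 members in the combined and 7 in the mono experiment. Over all genes tested, 30.3% and 40.4% had such separated groups, so the members' counts were not above the background. Fold changes had the same sign in both experiments for 23 members, 16 higher and 7 lower, and opposite signs for 13. Only Onecut2 and Prkca were called in both. The rod genes summed to 85958 to 103050 CPM without light and 47851 to 58724 CPM with light in the combined experiment; what this shift in makeup contributes to the members' shares was not tested.

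Onecut2 (chr18:64340364-64398488, plus strand, GRCm38), a homeodomain transcription factor gene of horizontal cells also used in retinal development, had the largest rise of the members. Without light it read 5.99, 6.92 and 8.19 CPM in the combined experiment and 6.29, 9.15 and 11.7 CPM in the mono experiment. With light it read 15.6, 13.4 and 14.1 CPM, and 15, 26.6 and 13.5 CPM. Every light library lay above every no-light library of its experiment, with mono light replicate 2 far above the rest. The log2 fold change was 1.03 ± 0.16 in the combined experiment (adjusted p = 0.00159) and 1.02 ± 0.29 in the mono experiment (adjusted p = 0.0186). Without mono light replicate 2 it was 0.66 with an adjusted p of 0.140, and the call was also lost without mono no-light replicate 1 (0.0759) or 2 (0.0508), or with only the groups compared in the fit (0.0571). The combined call held in all 13 alternatives. Its relative Onecut1 moved from 2.77 to 4.48 CPM in the combined experiment, a log2 difference of 0.69 ± 0.31 that did not pass (adjusted p = 0.183), and from 3.61 to 4.14 CPM in the mono experiment (0.20 ± 0.37, adjusted p = 0.739).

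Calb1 (chr4:15881264-15908064), the calcium buffer calbindin of horizontal and some amacrine cells, was lower with light in the combined experiment. It read 77.1, 62.2 and 66.1 CPM without light and 46.8, 54.2 and 52.6 CPM with light, so the groups did not overlap. The log2 fold change was -0.42 ± 0.10 (adjusted p = 0.0183), and the call was lost without no-light replicate 1 (0.0736) or light replicate 1 (0.0852). The mono values were 58.1, 67.6 and 84.8 CPM without and 59.3, 66.2 and 55.3 CPM with light; these ranges overlapped (-0.22 ± 0.14, adjusted p = 0.266). The remaining horizontal genes showed no such difference: Prox1, a homeodomain factor shared with bipolar and amacrine cells, averaged 105 and 103 CPM without and with light in the combined experiment, and Lhx1 1.91 and 1.96 CPM. Prox1 ran from 86.4 to 135 CPM without and from 97.3 to 107 CPM with light there. The lens-fibre score ran from 4.05 to 10.1 and from 3.47 to 7.80 in the same groups. How much of the Prox1 level goes with lens RNA was not tested beyond the covariate fit.

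Among bipolar genes, Grik1 (chr16:87896196-88056176, minus strand) had the largest light effect. It encodes the kainate receptor subunit GluK1, through which OFF bipolar cells respond to photoreceptor glutamate. Without light it read 30.3, 27.9 and 29.9 CPM in the combined experiment, and with light 61.7, 55.5 and 55.6 CPM. The separation was complete and the log2 fold change was 0.97 ± 0.12 (adjusted p = 0.000301). In the mono experiment the values were 34.0, 40.5 and 49.4 CPM without and 53.6, 86.1 and 47.9 CPM with light. There the ranges overlapped, light replicate 3 lying below no-light replicate 3, and the difference of 0.60 ± 0.21 just missed the threshold (adjusted p = 0.0508). The authors' deposited table lists the transcript Grik1-203 as the sole transcript of a member in the combined experiment, with a log2 fold change of no light against light of -1.02, and an adjusted p of 0.00182 for an F test over the groups. That transcript held 95.2% of the Grik1 counts.

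Prkca (chr11:107933387-108343928, minus strand) went the other way. It encodes protein kinase C alpha, the usual stain for rod bipolar cells. Levels were 308, 281 and 289 CPM without light and 222, 219 and 238 CPM with light in the combined experiment. They were 300, 334 and 392.4 CPM without and 233, 294 and 216 CPM with light in the mono experiment. All light libraries lay below all no-light libraries in both, although mono light replicate 2, at 294, came close to mono no-light replicate 1, at 300. The log2 fold changes were -0.37 ± 0.08 (adjusted p = 0.00908) and -0.47 ± 0.14 (adjusted p = 0.0250). The mono call was lost without no-light replicate 3 (0.121), light replicate 1 (0.0878) or light replicate 3 (0.0939).

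Trpm1 (chr7:64153835-64269775), the transduction channel of ON bipolar cells, was higher with light in the combined experiment. It read 96.2, 106 and 93.4 CPM without light and 185, 182 and 180 CPM with light, with little spread inside either group. The log2 fold change was 0.89 ± 0.13 (adjusted p = 0.00110). In the mono experiment the values were 278, 140 and 162 CPM without and 186, 252 and 170 CPM with light, which overlapped (0.07 ± 0.22, adjusted p = 0.853). Trpm1 is also expressed in pigment cells, and 1 of its 22 transcripts, the retained-intron transcript Trpm1-007, varied between libraries more than the gene did. It held 35% of the Trpm1 counts in mono no-light replicate 1, 30.0% in BMT replicate 2 and 23% in BRM replicate 1, but 3.31 to 11.0% in the other 27 libraries. The summed CPM of 10 pigment epithelium genes in those 3 libraries was 1297, 938 and 1145, ranks 1, 6 and 3 of 30. In the rest it ran from 241 to 1216. Of these genes, Mlana read 42.6, 23.5 and 28.3 CPM in the 3 libraries and at most 8.96 in the rest. Tyr read 60.5, 39.6 and 40.6 CPM there and at most 24.3 in the rest. Rpe65 did not set them apart, with 68.4, 55.6 and 67.9 CPM there and up to 110 in the rest. The part of pigment cells in the Trpm1 values was not tested.

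Leaving Trpm1-007 out, Trpm1 averaged 92.0 ± 5.47 CPM without and 173 ± 1.77 CPM with light in the combined experiment (SD, n = 3). Their ranges, 88.5 to 98.3 and 171 to 174 CPM, did not overlap. For the mono experiment the averages were 157 ± 23.1 and 185 ± 45 CPM, and the ranges still overlapped. Pigment genes summed to 330 to 737 CPM without and 317 to 1216 CPM with light in the combined experiment.

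**Figure D3:**
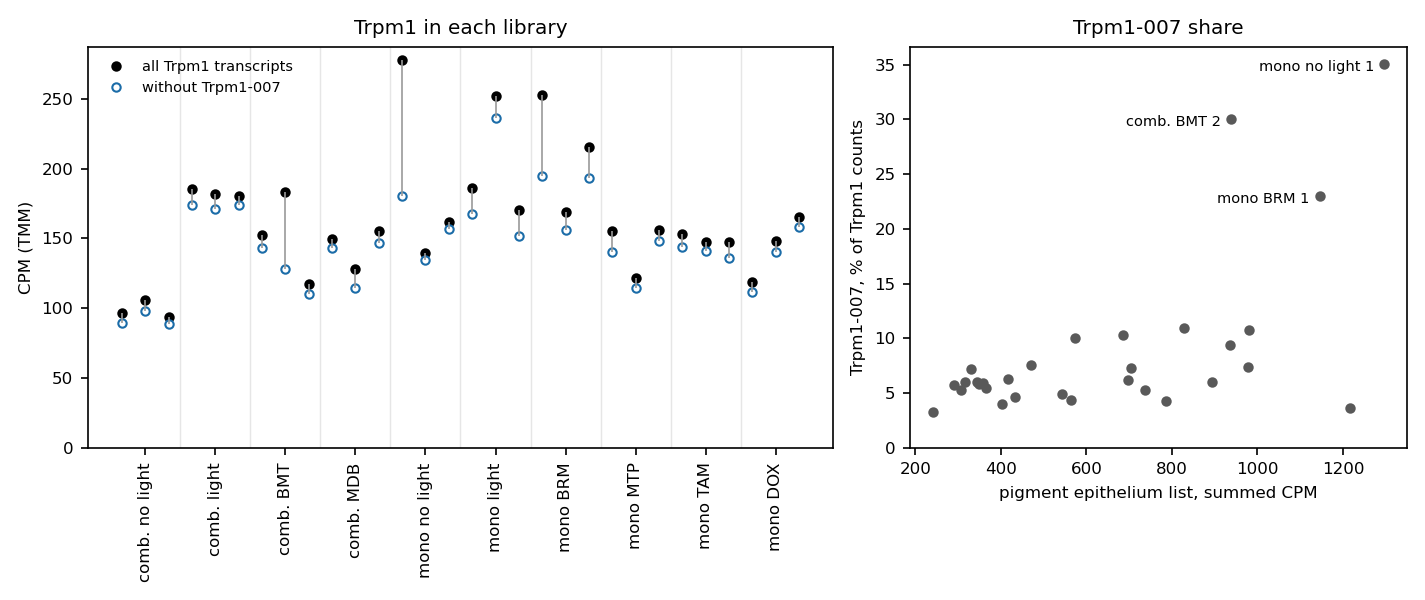
Left, Trpm1 in CPM in each of the 30 libraries with all transcripts (filled) and without Trpm1-007 (open); right, share of Trpm1 counts in Trpm1-007 against the summed CPM of 10 pigment epithelium genes. The 3 labelled libraries have shares of 23 to 35%, and the combined light libraries lie above the combined no-light libraries with or without the transcript.

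Other members of the ON cascade had smaller differences, and those of Grm6, Gpr179, Rgs11 and Gng13 had opposite signs in the experiments. Nyx, the gene of nyctalopin, read 10.8, 10.3 and 11.1 CPM without and 16.7, 17 and 13.1 CPM with light in the combined experiment (0.54 ± 0.14, adjusted p = 0.0280). This call was lost without 5 of the 6 libraries, every one but light replicate 3, with adjusted p from 0.0637 to 0.106. Nyx in the mono experiment read 11.3, 11.7 and 14.9 CPM without and 16.2, 21.2 and 12.3 CPM with light (0.39 ± 0.20, adjusted p = 0.178). Grm6, the mGluR6 gene, averaged 41.6 ± 2.45 CPM without and 49.9 ± 1.38 CPM with light in the combined experiment, and 57.6 ± 9.07 and 47.5 ± 13.7 CPM in the mono experiment (adjusted p = 0.193 and 0.258). Without mono light replicate 2, Grm6 and Gpr179 were called in the mono experiment. Gpr179 differed by 0.31 ± 0.13 and -0.29 ± 0.17 (adjusted p = 0.138 and 0.246), and Rgs11 by 0.33 ± 0.14 and -0.16 ± 0.14 (0.149 and 0.454). Gng13 stayed level, with 47.3, 37.6 and 47.7 CPM without and 39.8, 46.4 and 38.6 CPM with light in the combined experiment.

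The difference between the experiments' light effects was tested directly, over all 36 members. None was called by edgeR, as was the case for 0% of all genes tested; 5 members had an unadjusted p under 0.05 (Pcp2, Trpm1, Gpr179, Grm6 and Rgs11), a count not above the 15.1% of all genes at that threshold, and DESeq2 called none of the members. The lowest adjusted p was 0.171, for Pcp2, with a difference of 0.84 ± 0.28 on the log2 scale. All 5 had the higher light effect in the combined experiment.

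Pcp2 (chr8:3623371-3625545, minus strand) read 46.0, 52.0 and 54.9 CPM without light and 30.7, 35.8 and 38.1 CPM with light in the mono experiment. The groups were separate, and the log2 fold change was -0.55 ± 0.19 (adjusted p = 0.0472). The call was lost without any single one of the 6 libraries, with adjusted p from 0.0522 to 0.153. It was also lost with no filter on low counts (0.0504), with the replicate block (0.0559), with the lens-fibre covariate (0.0577) and with protein-coding transcripts only (0.116). In the combined experiment Pcp2 read 33.9, 46.4 and 45.9 CPM without and 56.8, 51.8 and 45.4 CPM with light (0.29 ± 0.19, adjusted p = 0.386). The calcium-binding protein genes Cabp5 and Scgn, which mark bipolar types, moved little: Cabp5 by -0.02 ± 0.13 and -0.04 ± 0.17, and Scgn by -0.02 ± 0.10 and -0.00 ± 0.15. The transcription factor genes Isl1 (0.10 ± 0.09 and 0.06 ± 0.12) and Vsx1 (-0.12 ± 0.15 and -0.33 ± 0.22) did not pass either.

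The 9 amacrine genes had log2 fold changes from -0.19 to 0.11 in the combined and from -0.13 to 0.31 in the mono experiment, with medians of -0.06 and 0.14. Gad1 read 261, 297 and 247 CPM without and 233, 278 and 195 CPM with light in the combined experiment, and 181, 314 and 225 against 292, 289 and 273 CPM in the mono experiment. Its ranges overlapped in both (-0.19 ± 0.15 and 0.25 ± 0.16). Calb2 read 243, 310 and 269 CPM without and 274, 324 and 262 CPM with light in the combined experiment (0.06 ± 0.12), and 214, 276 and 270 against 258, 264 and 314 CPM in the mono experiment (0.14 ± 0.12). The other GABA and glycine genes behaved likewise: Gad2, the second GABA-making enzyme, differed by -0.09 ± 0.16 and 0.27 ± 0.17, Slc32a1, the vesicular carrier of both transmitters, by 0.11 ± 0.29 and -0.11 ± 0.22, and Slc6a9, the glycine transporter, by -0.07 ± 0.19 and -0.13 ± 0.15. Chat and Slc18a3, which make and load acetylcholine in starburst cells, averaged 12.0 and 5.24 CPM without and 10.6 and 5.25 CPM with light in the combined experiment. Slc18a3 lies within the bounds of Chat on the same strand, so reads could be split between them. The AP-2 factor genes Tfap2a (0.06 ± 0.18 and 0.31 ± 0.18) and Tfap2b (-0.06 ± 0.16 and 0.20 ± 0.18) did not pass.

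The 9 ganglion genes had medians of 0.01 in the combined and 0.10 in the mono experiment. Nefl read 495, 513 and 481 CPM without and 505, 559 and 467 CPM with light in the combined experiment (0.04 ± 0.11). The mono libraries read 422, 495 and 517 CPM without and 499, 550 and 567 CPM with light (0.17 ± 0.13). Thy1 read 169, 212 and 188 CPM without and 177, 210 and 165 CPM with light in the combined experiment, and 151, 182 and 184 against 160, 157 and 213 CPM in the mono experiment. The closest to the threshold were Slc17a6, the vesicular glutamate transporter VGLUT2, which went from 107 to 140 CPM in the mono experiment (0.39 ± 0.15, adjusted p = 0.0774), and Nefm, which went from 126 to 164 CPM (0.38 ± 0.16, adjusted p = 0.104). In the combined experiment these differed by 0.08 ± 0.12 and 0.01 ± 0.13. Nefm and Nefl overlap on opposite strands in the files' annotation, and the strand setting of the counting is not given in the sources used here. Rbpms, an RNA-binding protein gene of all ganglion cells, differed by -0.24 ± 0.12 and -0.06 ± 0.14, and the POU-domain factor genes Pou4f1 and Pou4f2 by 0.01 ± 0.12 and -0.07 ± 0.17 in the combined experiment. Nefh (0.17 ± 0.10) and Sncg, the gene of gamma-synuclein (0.07 ± 0.12), also stayed short of the threshold there.

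**Figure D4:**
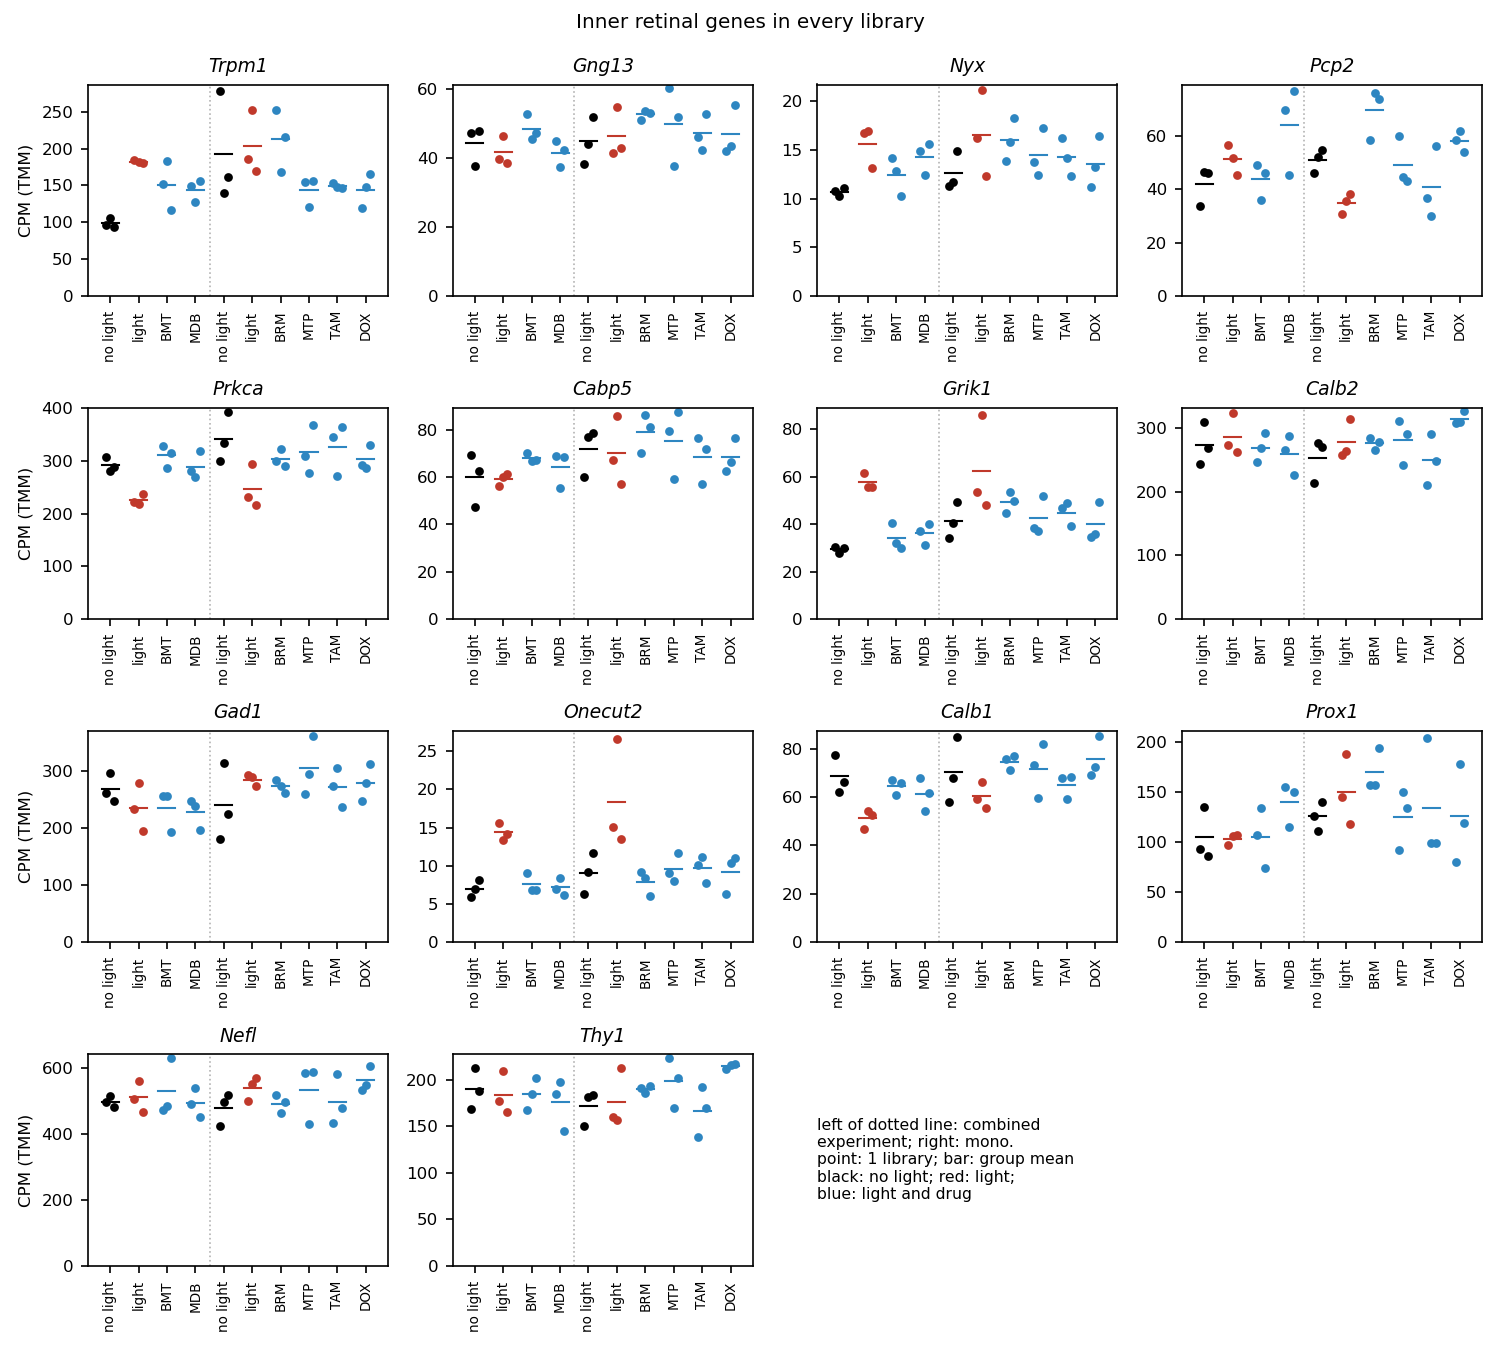
CPM of 14 members in every library, on linear axes from 0; points are libraries, bars are group means, and the dotted line separates the combined (left) from the mono experiment (right). Onecut2 is high and Prkca is low in light (red), with drug groups (blue) near no light (black). Grik1 is high in light in the combined experiment, while its light and no-light libraries overlap in the mono experiment. Gng13, Calb2, Nefl and Thy1 overlap between groups.

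Further inner retinal genes outside the 36 were listed by class. Of 59 tested, 9 were higher and 5 lower with light in the combined experiment, and 9 were higher and 4 lower in the mono experiment, with medians of 0.05 and 0.15. Over all genes 7.75% were called higher and 5.47% lower in the combined, and 11.4% and 12.6% in the mono experiment. The growth-cone protein gene Gap43 went from 26.1 ± 2.81 to 50.2 ± 3.13 CPM in the combined experiment (0.94 ± 0.09, adjusted p = 5.95e-05) and from 23.3 to 48.7 CPM in the mono experiment (1.06 ± 0.19, adjusted p = 0.000887). The gene of the neurofilament-related protein peripherin, Prph, went from 2.24 to 9.51 CPM (2.08 ± 0.29) and from 2.77 to 8.71 CPM (1.65 ± 0.38). From the same ganglion-related list Chrna6, a nicotinic receptor subunit gene, fell by 0.52 in the combined experiment (adjusted p = 0.00676), and Mmp17 fell by 0.35 and by 0.65 (0.0262 and 0.0282). Among bipolar-related genes Car8 (0.55 ± 0.10, adjusted p = 0.00451), Lhx4 (0.50 ± 0.13, 0.0260) and Irx5 (0.70 ± 0.20, 0.0394) were higher in the combined experiment, and Irx5 also in the mono experiment (0.87 ± 0.30, 0.0440). Gnb5, the G protein subunit that partners RGS proteins in bipolar cells and photoreceptors alike, fell by 0.64 and by 1.09 on the log2 scale, with adjusted p = 0.00209 and 0.000739. Amacrine-related genes included Lamp5 (0.55 ± 0.14 and 0.91 ± 0.16, both called) and Tac1, the substance P precursor (0.53 ± 0.14 and 0.68 ± 0.12, both called), while the gap junction gene Gjd2 fell by 0.60 in the combined experiment and differed by -0.14 ± 0.09 in the mono experiment. Of the horizontal-related genes Sept4 fell by 0.52 and 0.68, both called.

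A list of 8 genes that injured ganglion cells are known to switch on had 6 tested. Of these, 4 were higher with light in each experiment and none was lower. Over all genes 7.75% were called higher in the combined and 11.4% in the mono experiment. The list was chosen with earlier results of these data known, so its count is not independent of them. The list is not specific to ganglion cells, since stress turns on several of its genes in other cells. Atf3, a stress-induced transcription factor, went from 4.18 ± 0.34 to 41.4 ± 5.06 CPM in the combined experiment (3.31 ± 0.29, adjusted p = 4.1e-05) and from 4.14 to 39.5 CPM in the mono experiment (3.25 ± 0.59, adjusted p = 0.00113). Sox11 went from 3.65 to 6.19 CPM (0.76 ± 0.22) and from 3.45 to 8.49 CPM (1.30 ± 0.23), and Ddit3 and Csrnp1 were called as well. In the main fit none of the 9 ganglion members was called beside them.

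Drug groups were next compared with light. These comparisons share the light libraries within an experiment, so they are not independent of each other or of the light effect above. With BMT 6 of 36 members were called against light: Prkca, Calb1 and Rbpms were higher and Grik1, Onecut2 and Rgs11 lower. That is 8.33% in each direction, where 7.96% of all genes were called higher and 9.78% lower. With MDB 3 were called, with Prkca higher and Grik1 and Onecut2 lower, or 2.78% and 5.56% of the members against 3.7% and 5.93% of all genes. With BRM alone 4 were called, with Pcp2, Rgs11 and Slc6a9 higher and Onecut2 lower (8.33% and 2.78%, against 7.08% and 7.32%), and with DOX alone 2, with Pcp2 higher and Onecut2 lower (2.78% each, against 6.79% and 5.06%). MTP and TAM had no member called by edgeR, where 10.3% and 10.6% of all genes were called in either direction; at an unadjusted p under 0.05 there were 6 and 3 members, beside 23.9% and 24.9% of all genes, and DESeq2 called 3 and 2 members, beside 2271 and 2312 genes in all.

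Onecut2 gave the most regular pattern across drugs. It read 9.08, 6.89 and 6.90 CPM with BMT and 6.92, 8.45 and 6.25 CPM with MDB, all below every combined light library. With single drugs it read 9.20, 8.44 and 6.11 CPM after BRM, 9.02, 7.99 and 11.7 after MTP, 10.2, 11.2 and 7.78 after TAM, and 6.36, 10.4 and 11.0 after DOX. All 12 of these values lay below the lowest mono light library, at 13.5 CPM. Against light the log2 fold changes were -0.91 ± 0.16 for BMT (adjusted p = 0.00304), -1.0 ± 0.16 for MDB (0.00250), -1.21 ± 0.29 for BRM (0.0133) and -0.99 ± 0.29 for DOX (0.0403). MTP and TAM missed the threshold with similar sizes, -0.94 ± 0.29 (0.0528) and -0.92 ± 0.29 (0.0578). Without mono light replicate 2 the BRM value was -0.84 (adjusted p = 0.0975, range over its alternatives 0.00118 to 0.0975) and the DOX value -0.61 (0.253, range 0.0132 to 0.253), so both calls were lost. The BRM call was also lost without BRM replicate 3, and the DOX call without light replicate 1 or DOX replicate 1 or 2, with no filter, or with only the groups compared.

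Grik1 read 40.3, 32.0 and 29.8 CPM with BMT and 37.2, 31.0 and 39.9 CPM with MDB, below all combined light libraries. It fell by 0.76 with BMT (adjusted p = 0.00152) and by 0.67 with MDB (0.00392) on the log2 scale. In the authors' deposited table the log2 fold changes of its transcript Grik1-203 against light were -0.82 for BMT and -0.70 for MDB. Single drugs gave 44.7, 53.4 and 49.8 CPM for BRM, 38.5, 37.0 and 51.8 for MTP, 46.7, 48.8 and 39.1 for TAM, and 34.5, 35.9 and 49.2 for DOX. None of these passed against mono light, whose own values ran from 47.9 to 86.1 CPM; the nearest was DOX, with -0.65 ± 0.21 and an adjusted p of 0.0570.

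Prkca read 329, 287 and 316 CPM with BMT and 280, 270 and 319 CPM with MDB, all above the combined light libraries. It rose by 0.46 ± 0.08 with BMT (adjusted p = 0.00267) and by 0.36 ± 0.08 with MDB (adjusted p = 0.0151). The MDB call was lost when MDB replicate 3 or either of the first pair of light libraries was left out, with adjusted p up to 0.0765. After single drugs Prkca read 300, 323 and 290 CPM for BRM, 310, 276 and 368 for MTP, 347, 272 and 364 for TAM and 293, 288 and 330 for DOX. Of these 12 values 7 exceeded the highest mono light library, at 294 CPM, but none of the 4 comparisons passed (0.29 to 0.40, adjusted p from 0.0809 to 0.180).

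Pcp2 was called against light for BRM and DOX. It read 58.5, 76.3 and 74.1 CPM after BRM, 58.5, 62.0 and 54.2 after DOX, 59.9, 44.5 and 43.3 after MTP, and 36.7, 29.9 and 56.3 after TAM. The TAM values spread over the mono light range of 30.7 to 38.1 CPM, while every BRM, DOX and MTP value lay above it. The log2 fold changes against light were 1.00 ± 0.19 for BRM (adjusted p = 0.00423) and 0.74 ± 0.19 for DOX (0.0222), and 0.50 ± 0.19 for MTP (0.114) and 0.23 ± 0.19 for TAM (0.499) did not pass. The differences between drugs were not tested. The BRM call held in all 13 alternatives, while that of DOX was lost without light replicate 1 or 2 or DOX replicate 1 or 2, with adjusted p up to 0.0832. In the combined experiment Pcp2 read 49.1, 36.1 and 46.0 CPM with BMT and 69.6, 45.4 and 77.0 CPM with MDB.

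BRM libraries were also high for Rgs11 and Slc6a9. Rgs11 read 27.8, 34.2 and 38.9 CPM after BRM and 22.4, 22.0 and 26.7 CPM with light (0.51 ± 0.14, adjusted p = 0.0250), and it passed no longer without light replicate 1 or 2 or BRM replicate 2 or 3. When only protein-coding transcripts were counted its adjusted p was 0.532, and 54.3% of Rgs11 counts were on retained-intron transcripts. Slc6a9 read 154, 148 and 149 CPM after BRM and 106, 90.8 and 116 CPM with light (0.53 ± 0.15, adjusted p = 0.0269), and this call was lost without light replicate 1 or 2 or any BRM library, with adjusted p up to 0.128. The authors' deposited table for the mono experiment lists 1 transcript of a member, Slc6a9-006, with log2 fold changes against light of 1.10 for BRM, 1.22 for DOX, 0.43 for MTP, -0.28 for TAM and 0.31 for no light (adjusted p = 0.0280, F test over the groups).

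With BMT, Rgs11 read 21.3, 19.1 and 23.2 CPM against 26.5, 24.2 and 35.4 CPM with light, a fall of 0.44 on the log2 scale that barely passed (adjusted p = 0.0489). Calb1 read 66.9, 61.0 and 65.6 CPM with BMT against 46.8, 54.2 and 52.6 CPM with light (0.33 ± 0.10, adjusted p = 0.0436). Rbpms averaged 48.5 CPM with BMT and 37.3 CPM with light (0.38 ± 0.12, adjusted p = 0.0489), with overlapping libraries. Each of these 3 calls was lost without at least 4 single libraries, light replicate 1 and BMT replicate 3 among them, with adjusted p up to 0.154, 0.164 and 0.175. All 3 were also lost with no filter on low counts (0.0603, 0.0501 and 0.0578), Rgs11 with RLE scaling (0.0574), Rgs11 and Rbpms with only the groups compared (0.105 and 0.0690), and Rbpms with the replicate block (0.0537).

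Trpm1 and Nyx, which were higher with light in the combined experiment, did not pass against light with either mixture in the main fit. With BMT, Trpm1 was called with protein-coding transcripts only, with the lens-fibre covariate or without BMT replicate 2. With MDB it was called with the lens-fibre covariate or with only the groups compared. Leaving out Trpm1-007, it ranged from 110 to 143 CPM with BMT and from 114 to 146 CPM with MDB, against 171 to 174 CPM with light. Trpm1 read 152, 183 and 117 CPM with BMT and 149, 128 and 155 CPM with MDB, between the no-light and light libraries except for BMT replicate 2, which held 30.0% of its counts in Trpm1-007. The log2 fold changes against light were -0.27 ± 0.13 and -0.34 ± 0.13 (adjusted p = 0.179 and 0.146). After single drugs it read 253, 169 and 216 CPM for BRM, and 119 to 166 CPM over the 9 libraries of MTP, TAM and DOX. Nyx read 14.2, 12.9 and 10.2 CPM with BMT and 14.9, 12.4 and 15.6 CPM with MDB, and 11.2 to 18.3 CPM over the single-drug libraries. Calb1 with MDB (68.0, 54.3 and 61.9 CPM) did not pass either (0.26 ± 0.10, adjusted p = 0.143).

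**Figure D5:**
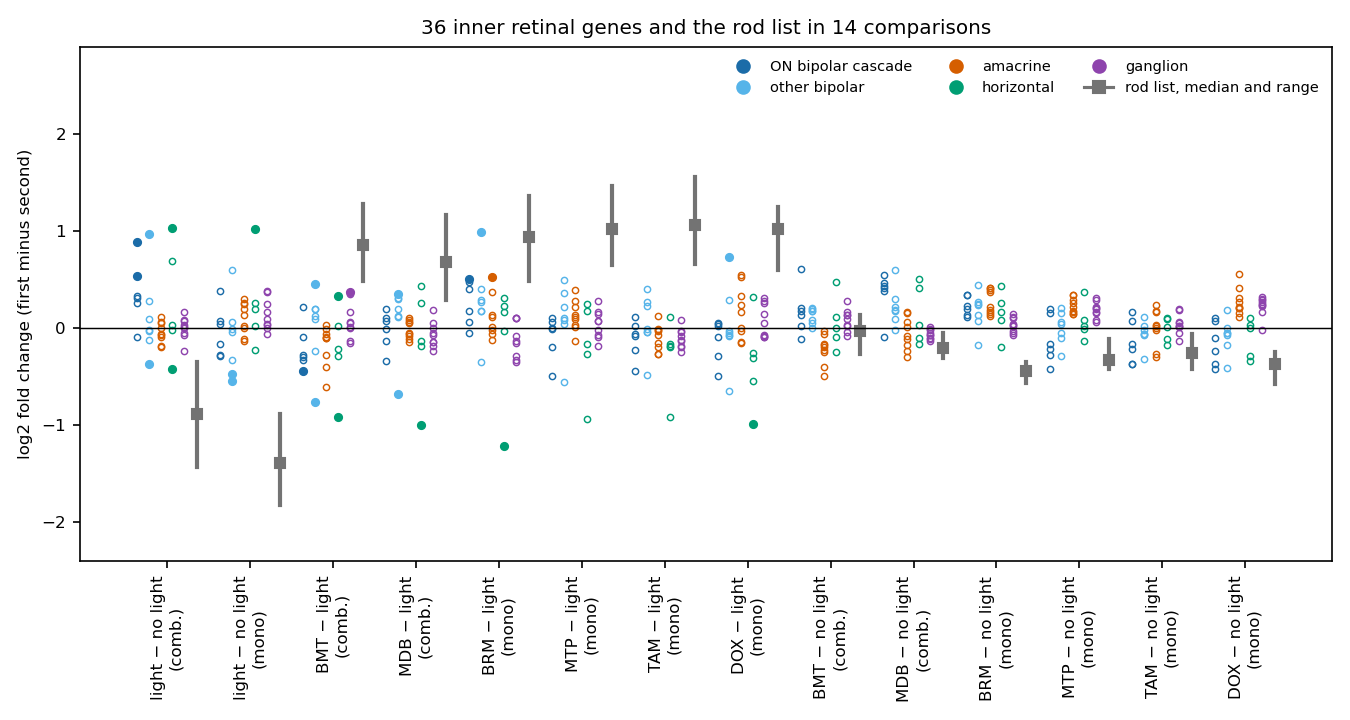
Log2 fold changes of the 36 members (circles by class, filled where the adjusted p is under 0.05) in 14 comparisons, beside the median and range of 15 rod genes (grey). Rod genes lie below 0 with light and above 0 for each drug against light, while most members stay near 0; no member is filled in the 6 comparisons of drug with no light.

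Against no light, no member was called by edgeR in any of the 6 drug groups, and neither was any other gene (0% of all genes tested in each). The members with an unadjusted p under 0.05 numbered 1 for BMT, 8 for MDB, 4 for BRM, 0 for MTP, 1 for TAM and 3 for DOX. At that threshold stood 6.3%, 10.3%, 15.6%, 8.59%, 8.17% and 13% of all genes in the same order, so of the 36 members a share above that of all genes was found for MDB alone. DESeq2 called 1 member, Trpm1, for BMT and for MDB and none for the single drugs. Trpm1 was 0.62 ± 0.13 above no light with BMT and 0.55 ± 0.13 with MDB on the log2 scale in edgeR, sizes that did not pass after adjustment (0.787 and 0.480). Those of Grik1 were 0.21 ± 0.12 and 0.30 ± 0.12, and those of Onecut2 0.12 ± 0.17 and 0.03 ± 0.17. The 8 members for MDB were Grm6, Trpm1, Nyx, Gpr179, Rgs11, Pcp2, Isl1 and Grik1, all bipolar genes and all higher than without light, with adjusted p of 0.480 or more.

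By class, the drug groups differed from no light by small medians. In the ON cascade the median was 0.16 for BMT and 0.43 for MDB, 0.22 for BRM, and -0.19, -0.19 and -0.17 for MTP, TAM and DOX. The amacrine genes had -0.19 for BMT, with all 9 below 0, and 0.22, 0.22 and 0.22 for BRM, MTP and DOX, with all 9 above 0. They had -0.08 for MDB, with 4 above 0, and 0.03 for TAM, with 6 above 0. With BRM 31 of the 36 members lay above 0, and with MTP all 9 ganglion genes did. Other bipolar genes had medians from -0.06 for TAM to 0.24 for BRM. Horizontal genes had medians from 0.004 for DOX to 0.17 for BRM. Ganglion genes had medians of 0.09, -0.07, 0.04, 0.20, 0.03 and 0.25 for BMT, MDB, BRM, MTP, TAM and DOX. None of these members passed, and genes of a class are not independent replicates. The rod genes had medians from -0.44 for BRM to -0.02 for BMT in the same comparisons.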

How the data were processed

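Messenger RNA of neural retina was made into stranded (dUTP) paired-end libraries, per the labels. Per the submitters' processing notes, the tools were Trimmomatic, TopHat2, Bowtie2, eXpress, edgeR and limma on GRCm38.p3; no version or eXpress setting is stated there. The authors deposited expected counts per transcript (eXpress effective counts, not normalized) and FPKM per transcript. The authors also deposited lists of significant transcripts with log2 fold changes against light and, for each transcript, 1 adjusted p-value (F test across groups).

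Expected counts of 102906 transcripts were summed per gene and rounded; FPKM were summed per gene. Each experiment was fitted separately in edgeR 4.0.16 (R 4.3.3) with filterByExpr, TMM scaling and the two-sided quasi-likelihood test over all groups, with Benjamini-Hochberg adjustment within each of 15 comparisons. The difference between light effects used all 30 libraries. CPM are TMM-scaled; SE is the fold change over the square root of F. The fit was also run on counts simulated from its own estimates of spread, with changes set only in genes of higher count. That run does not cover genes of low count or small changes, and nothing here rests on it. Alternatives were RLE scaling, no filter, DESeq2 1.42.0, a replicate block, a lens-fibre score as covariate, a fit of only the groups compared, each library left out, and, added after the data were examined, protein-coding transcripts only. Depth and 3 libraries a group limit the precision.

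Members and lists were chosen with earlier results of these data known. Values in every library are given or plotted for members called with light and for the 2 members of each class with the highest mean FPKM; from each other inner retinal list, up to 4 genes ranked by adjusted p in the combined light comparison could be named. The authors' scaled FPKM tables were not used here.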

Additional observations from a re-analysis of the deposited data

How the results depend on the processing

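None of the 24 called log2 fold changes of members reversed under the 13 alternatives run for each. Counts of called members that moved by more than 1.5 times were as follows. With DESeq2 there were 1 for BMT and 1 for MDB against no light, and 3 for MTP and 2 for TAM against light. Without the filter on low counts there were 3 for BMT and 1 for DOX against light. With only the groups compared there were 5 for MDB, 9 for BRM and 1 for DOX against light. With the lens-fibre covariate there were 5 for light in the mono experiment (Grik1, Nefm, Onecut2, Prkca and Slc17a6) and 1 for TAM against light. Leaving out each library in turn gave 4 to 6 for light in the combined and 1 to 3 in the mono experiment, 3 to 5 for BMT, 2 to 5 for MDB, 1 to 4 for BRM, 0 to 1 for MTP, 0 to 2 for TAM and 0 to 4 for DOX, all against light; fewer libraries enter these fits, and the cause of each change was not tested otherwise. Mono light replicate 2, the highest library for Onecut2 and Grik1, gave 3 calls for light when left out, of which only Prkca was shared with the full set (Onecut2 and Pcp2 were lost, Grm6 and Gpr179 gained), and 0 for DOX. Deviations of same-numbered libraries correlated from -0.22 to 0.56 in the combined and from -0.26 to 0.44 in the mono experiment. Those of differently numbered libraries ran from -0.49 to 0.37 and from -0.36 to 0.45. These ranges are wide and overlap, so they do not settle whether replicate numbers pair the samples. With the replicate block the counts were 6 and 3 for light, 5 for BMT, 3 for MDB, 4 for BRM and 2 for DOX against light. The block lost Pcp2 and gained Grik1 for light in the mono experiment and lost Rbpms for BMT. Over all genes, where edgeR called 0 against no light, DESeq2 called 13 for BMT, 22 for MDB, 398 for BRM, 3 for MTP, 7 for TAM and 41 for DOX, and 437 for the difference between the experiments' light effects. With only the groups compared, edgeR called 34 for DOX against no light in place of 0, and 298 for TAM and 1065 for DOX against light in place of 1722 and 1927. RLE scaling gave 6 and 3 for light and 5 for BMT. The all-gene median moved by under 0.1 under each scaling. Depth limits Lhx1, Slc18a3 and Onecut1 most, with as few as 24, 26 and 28 counts in a library, ahead of Chat and Onecut2, each with as few as 115.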

Other observations

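The glycine transporter gene Slc6a9 shifted between annotated transcripts in 1 library. In combined light replicate 2, transcript Slc6a9-001 was assigned 2650 counts and Slc6a9-003 4.10 counts. In the other 29 libraries Slc6a9-001 had 206 to 914 counts and Slc6a9-003 had 722 to 2494. The summed gene level was 128 CPM in that library and 123 and 111 CPM in the other light libraries of the combined experiment.

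The leading transcript of Rgs11 was a retained-intron transcript, Rgs11-003, with 23% of the gene's counts. Only 41.9% of the Rgs11 counts were on protein-coding transcripts, against 99.7% for Calb1 and 100% for Grik1.

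Prox1 differed widely between libraries within several groups. With TAM it read 204 CPM in replicate 1 beside 99.4 CPM in each of the others. The DOX libraries ran from 80.3 to 178 CPM and those of MTP from 92.1 to 150 CPM. In the combined experiment the BMT libraries ran from 74.6 to 134 CPM and those without light from 86.4 to 135 CPM. The lens-fibre score was 8.89 in TAM replicate 1, beside 5.76 and 6.13 in replicates 2 and 3. In DOX replicates 1, 2 and 3 the score was 5.07, 9.78 and 4.94. The score ran from 3.49 to 9.07 for MTP, from 1.41 to 8.98 for BMT and from 4.05 to 10.1 for combined no light. By group, Prox1 averaged highest with BRM, at 169 CPM, and lowest with combined light, at 103 CPM. Scores there ran from 8.41 to 10.1 and from 3.47 to 7.80. The part of lens RNA in the Prox1 values was not tested beyond the fit with the score as covariate. The spread of Prox1 within groups was wider than that of Calb1 in the same groups, at 59.1 to 68.3 CPM for TAM and 68.9 to 85.3 CPM for DOX.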
